A study of Danio rerio with 6 samples.

Results

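The methylation landscape of control zebrafish embryos at the late gastrula was described from both control libraries of a MeDIP-seq experiment, 2 of the 6 libraries in the series. MeDIP-seq recovers fragments of genomic DNA with an antibody against 5-methylcytosine and sequences them, and a peak is a stretch of the genome where such fragments pile up. Only chromosomes 1 and 10 to 18 were taken, because these 10 chromosomes are complete in every deposited list. They hold 64400 of the 65516 listed peaks of control library 1 and 65490 of the 65516 peaks of control library 2. Both lists break off part-way through a later chromosome at the same number of rows, so 65516 is not the peak total of either library. Both libraries were made from DNA of whole embryos at 80% epiboly, the stage at which the blastoderm has spread over 80% of the yolk. The libraries are titled as control zebrafish embryos. Whether the embryos received a control injection, their strain and the number pooled per library are not stated in the labels. The 2 MeDIP libraries of embryos with reduced dnmt1 and the 2 RNA libraries of the series were not used. A DNA library has no marker genes, so the stage and tissue on the label could not be checked.

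In vertebrates, methyl groups are placed on cytosines that precede a guanine (CpG sites), and dnmt1 is the enzyme that copies the pattern to the new strand after each round of replication. Most of the zebrafish genome is methylated in early development, and the exceptions are mainly CpG-rich promoters and other regulatory stretches. MeDIP signal follows the density of methylated CpG sites, so a stretch with few CpG sites can be fully methylated and give no peak. In DNA from whole embryos, fewer cells that carry a methyl group and fewer methyl groups per cell cannot be told apart.

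Peaks were dense, short and alike in both libraries. Control 1 held 126 peaks per Mb and control 2 held 128, a mean of 127 ± 1.51 (SD, n = 2) over 510 Mb, where the extent of each chromosome runs from its first base to the last peak end in either list. Peaks lay over 18.3% ± 0.0177 of these bases. The median peak was 1247 bp wide in control 1, with quartiles of 966 and 1698 bp, and 1226 bp wide in control 2, with quartiles of 949 and 1669 bp. Widths ran from 402 to 8146 bp in control 1 and from 381 to 8441 bp in control 2. Control 2 thus had slightly more and slightly narrower peaks, and the covered share differed by less than 0.1 percentage points.

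The lists give each peak a fold enrichment, the authors' own ratio of signal at the peak to a background that the headers do not describe. Strong and weak peaks are here those with a high or a low ratio. Whether the background varies along the genome is not given and was not tested, so a low ratio need not mean less signal. Its median was 5.76 in control 1 (quartiles 4.78 and 7.06) and 5.75 in control 2 (quartiles 4.78 and 7.10). Values ran from 2.31 to 21.53 in control 1 and from 2.16 to 21.75 in control 2, and the top 1% of peaks began at 11.7 in both. Strength and width were not related in one direction. The median fold enrichment of control 1 was 5.24 in the narrowest 10% of its peaks, 6.15 in the 10% just below the median width and 5.24 again in the widest 10%, and in control 2 the same 3 groups had 5.26, 6.19 and 5.25. Spearman's rho of width and fold enrichment was 0.02 over the peaks of either list. Many fold values also sat on a regular scale. In control 1, 45.5% of them lay within 0.006 of a whole multiple of 0.11388, and in control 2, 45.3% lay as close to a multiple of 0.11456, where evenly spread values would give 10.5%. Both steps were picked for the largest excess over evenly spread values in these same lists. The 10.5% does not allow for that choice. Peaks on this scale were narrower (median 1077 bp against 1436 bp in control 1, 1058 bp against 1414 bp in control 2), so the course of fold enrichment along the chromosomes is given below with and without them.

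The 10 chromosomes differed by more than the libraries did. Chromosome 15 held the most peaks per Mb (133 in control 1 and 136 in control 2), followed by chromosome 10 (129 and 134) and chromosome 11 (130 and 132). Chromosome 1 held the fewest (117 and 119), and chromosome 12 came next (123 and 125). The highest mean was 1.14 times the lowest, and the SD between chromosome means was 4.65 peaks per Mb against 1.82 between the libraries within a chromosome. Control 2 had more peaks per Mb on all 10 chromosomes.

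The covered share separated the chromosomes more clearly. It was 20.01% in control 1 and 20.09% in control 2 on chromosome 15, and 16.8% in both libraries on chromosome 1. All 10 chromosomes had the same rank in both libraries, with an SD of 0.948 percentage points between chromosomes and 0.086 between libraries. Peaks were widest on chromosomes 15 and 10, with medians of 1277 and 1278 bp in control 1 and of 1270 and 1248 bp in control 2. They were narrowest on chromosome 17, with 1210 and 1189 bp. The SD of median width was 21.2 bp between chromosomes, near the 15.4 bp between libraries. Control 1 had the wider median on all 10 chromosomes, so the 15.4 bp includes a shift of the whole list. Spearman's rho between the chromosome medians of both libraries was 0.90. Median fold enrichment moved little, from a mean of 5.71 on chromosome 15 to 5.83 on chromosomes 1 and 17. Its SD between chromosomes, 0.0400, was near the 0.0218 between libraries, so neighbours in that order do not differ beyond their spread.

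At 1 Mb resolution the density varied more than between chromosomes. Over 505 complete windows, control 1 held from 56 to 175 peaks per window with a median of 127, and control 2 from 49 to 171 with a median of 129. The central 90% of windows lay between 95.2 and 154 peaks in control 1 and between 96 and 155 in control 2. The most peaks were in chr15:39000001-40000000, with 175 in control 1 and 171 in control 2. Next came chr17:9000001-10000000 with 160 and 171, and chr17:51000001-52000000 with 164 and 167. All 3 of these windows were also covered above the median window, with 25.9%, 24.4% and 28.4% of bases under control 1 peaks against a median of 17.5%.

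**Figure D1:**
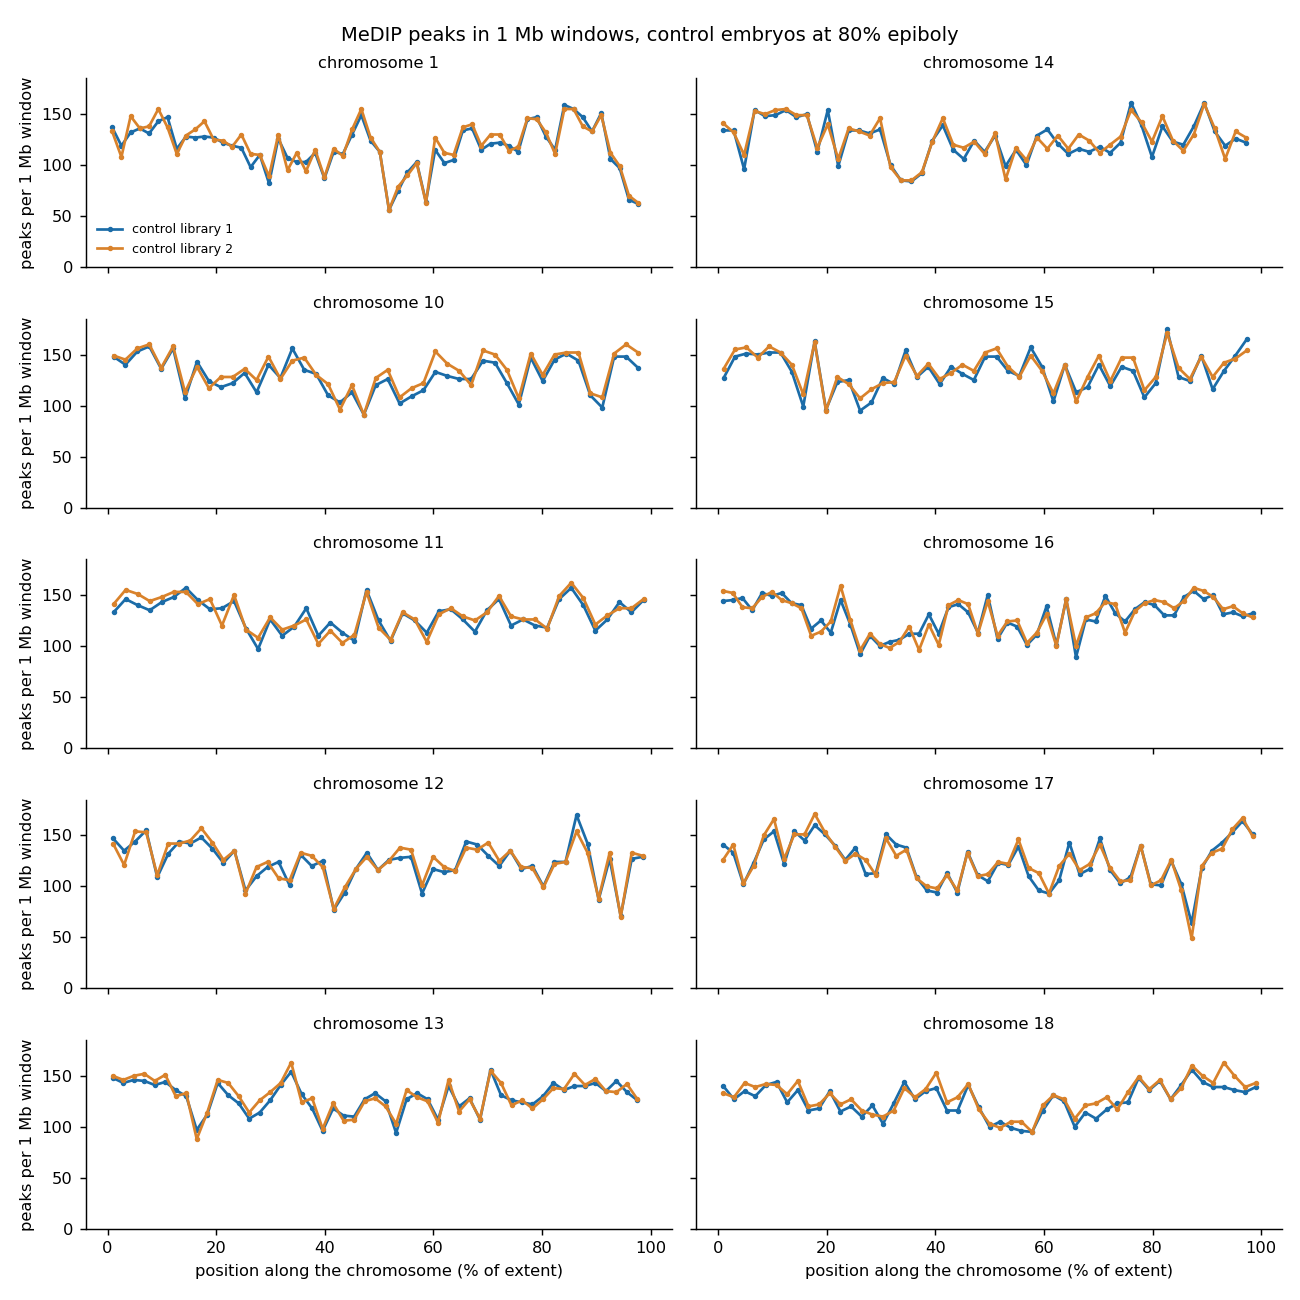
Peaks per complete 1 Mb window (vertical axis) against the position of the window as a percent of the chromosome's extent (horizontal axis) on 10 chromosomes, with 1 point per window and 1 line per control library. Both lines follow each other, with dips on chromosome 1 to 56 peaks in both libraries and on chromosome 17 to 64 and 49 peaks.

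The fewest peaks were in chr1:30000001-31000000, with 56 in each library. The next were chr17:46000001-47000000, with 64 and 49, and chr1:57000001-58000000, with 62 and 63. Parts of these windows held no peak at all in either library. Stretches of 50 kb or more without a peak took 197 kb of the first window, 373 kb of the second and 515 kb of the third. Outside them the density was still low in the first window, at 69.7 peaks per Mb in both libraries, and in the second, at 102 and 78.2 peaks per Mb. In the third it was 128 and 130 peaks per Mb, close to the mean of all chromosomes. Gaps in an assembly, repeats to which reads cannot be placed and DNA with few methylated sites all leave no peak, and the lists do not separate them.

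Covered share picked out other windows at the upper end. The largest shares were in chr15:2000001-3000000, with 30.4% in control 1 and 30.8% in control 2, in chr10:1-1000000, with 30.0% and 29.7%, and in chr17:52000001-53000000, with 29.5% and 29.4%. All 3 lie close to a chromosome end, and their median peaks were 1658, 1626 and 1582 bp wide in control 1. The smallest shares were in chr17:46000001-47000000, with 7.40% and 6.16%, in chr1:30000001-31000000, with 6.90% and 6.75%, and in chr1:34000001-35000000, with 9.08% and 8.22%. In the last of these, 234 kb were free of peaks and the remainder held 83.5 and 82.2 peaks per Mb.

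Windows that neighbour each other were alike. Pearson's r between a window and the next was 0.39 for peak number in control 1 and 0.41 in control 2, and 0.60 and 0.61 for covered share. At a distance of 5 windows r was 0.06 and 0.08 for peak number and 0.23 and 0.22 for covered share, and at 10 windows it was -0.04 in both libraries for peak number. Windows with more of their bases under peaks had weaker peaks, with a Spearman's rho of -0.56 between covered share and median fold enrichment in each library. The rho between median width and median fold enrichment was -0.58 and -0.60. These are descriptions over 505 windows that share one genome, its base composition and its mappability.

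In all, 118 stretches of 50 kb or more were free of peaks in both libraries and summed to 9.54 Mb. Of these, 17 were at least 100 kb long and 4 at least 200 kb. Chromosome 1 held 27 of them, with 2334 kb, while chromosome 18 held 3, with 169 kb. The longest was chr1:57332025-57712742 (381 kb), near the far end of chromosome 1. It was followed by chr12:46358493-46604173 (246 kb) and chr17:2735149-2954565 (219 kb), and all 3 lie within the outer 10% of their chromosomes.

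Along the chromosomes, the landscape changed from the ends to the middle. In the outer 10% at each end, peaks covered 23.2% of bases in control 1 and 23.1% in control 2, against 17.1% of the middle 80% in both. The ratio of ends to middle was 1.35 ± 0.00268 (SD, n = 2) and ran from 1.19 on chromosome 1 to 1.51 on chromosome 17, above 1 on all 10 chromosomes in both libraries. Peaks at the ends were wider, with a median of 1448 bp against 1200 bp in control 1 and 1418 bp against 1182 bp in control 2. The width ratio was 1.203 ± 0.00495 and above 1 on all 10 chromosomes in both libraries. Peak number contributed less. The ends held 135 peaks per Mb in control 1 and 138 in control 2, the middle 124 and 126, a ratio of 1.09 ± 0.00177. That ratio was 1.16 on chromosome 17 and 1.002 on chromosome 1, where the difference between ends and middle was under the spread between libraries.

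The end of each chromosome with low coordinates was the denser one on average. It held 1.13 times the peaks per Mb of the middle, above 1 on all 10 chromosomes in both libraries, and the opposite end held 1.06 times. The latter was below the middle on chromosome 1, at 0.857, and on chromosome 12, at 0.930. Both of those ends hold one of the long peak-free stretches named above. So does the low end of chromosome 17, which was denser than the middle, at 1.09 times. Whether such stretches account for the low densities was not tested. At the far ends of chromosomes 1 and 12 the covered share still stayed above that of the middle, at 1.05 and 1.18 times. Chromosomes 17 and 18 went the other way round, with 1.09 times the middle density at the low end of each and 1.23 and 1.14 times at the far end.

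**Figure D2:**
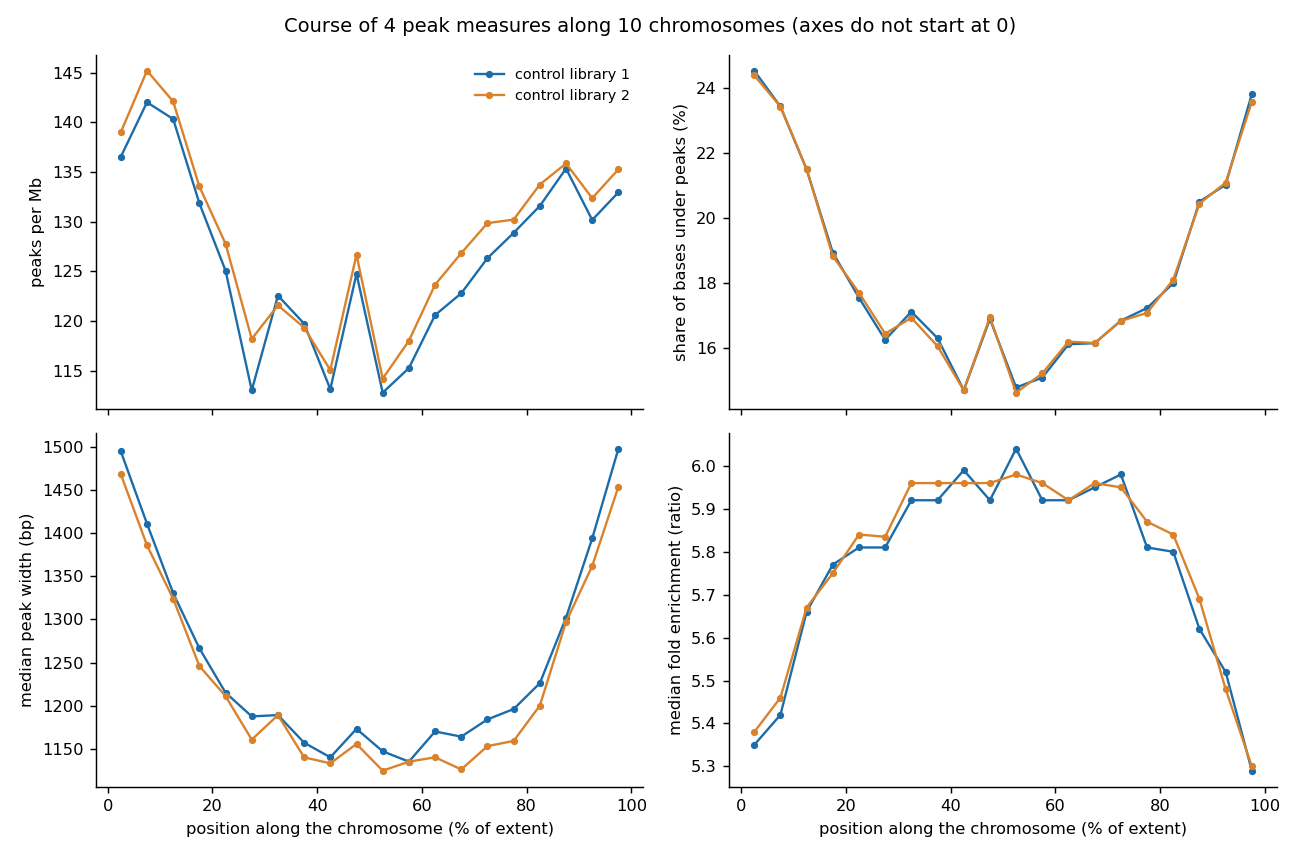
Peaks per Mb, share of bases under peaks (%), median peak width (bp) and median fold enrichment (ratio) in 20 bins of 5% of the chromosome's extent, over all 10 chromosomes, with 1 line per control library and vertical axes that do not start at 0. Covered share fell from 24.5% in the first bin of control 1 to 14.7% between 40% and 45% and rose to 23.8% in the last, while median fold enrichment ran the opposite way, from 5.35 to 6.04 between 50% and 55% and back to 5.29.

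Peaks at the ends had lower fold enrichment. Their median fold enrichment was 5.40 in control 1 and 5.38 in control 2, against 5.85 in the middle of both, a ratio of 0.921 ± 0.00242 that was below 1 on all 10 chromosomes in both libraries. The ratio was lowest on chromosome 15, at 0.888, and highest on chromosome 18, at 0.944. The share of peaks on the regular fold scale moved with position too, from 31.0% at the ends to 49.4% in the middle of control 1 and from 31.2% to 49.1% in control 2. Among peaks on that scale the ratio of ends to middle was 0.943 and below 1 in both libraries on 9 of 10 chromosomes, and among the others it was 0.915 and below 1 on all 10. The lower fold enrichment at the ends was also present at every width. In the narrowest 20% of peaks it was lower by 0.11 at the ends in each library (5.24 against 5.35 in control 1), and among peaks of 1386 to 1863 bp in control 1 the medians were 5.50 at the ends and 6.20 in the middle, and among those of 1361 to 1827 bp in control 2 they were 5.52 and 6.20.

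The density at the ends therefore depended on which peaks were counted. Among the weakest 25% of peaks, with fold values up to 4.77, the ends held 44.0 peaks per Mb in control 1 and the middle 28.3, and in control 2 they held 44.7 and 28.9. Among the strongest 25%, with fold values above 7.06 in control 1 and 7.10 in control 2, the order was reversed, with 25.1 peaks per Mb at the ends and 33.0 in the middle of control 1, and 25.3 and 33.4 in control 2. The ratio of ends to middle fell through the 4 groups of 25% from 1.56 to 1.14, 0.979 and 0.759 in control 1, and from 1.55 to 1.19, 0.948 and 0.757 in control 2. With only the strongest 50% of each list by fold enrichment, the ratio over all chromosomes was 0.859 instead of 1.09.

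Sorted by width, the trend was steeper and went the other way. The narrowest 25% had 0.669 times the middle density at the ends in control 1 and 0.671 times in control 2. The widest 25% had 1.90 times in both, with 50.9 peaks per Mb against 26.7 in control 1. The extremes of the list followed this order. Of the widest 1% of peaks, 41.6% lay in the ends in control 1 and 40.3% in control 2, where 21.4% and 21.5% of all peaks lay. Of the strongest 1%, 12.6% and 11.3% lay there. These widest peaks were weak, with a median fold enrichment of 4.15 in control 1 and 4.18 in control 2.

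Peaks were unevenly spaced. The median gap from the end of a peak to the start of the next was 4689 bp in control 1 and 4614.5 bp in control 2, with quartiles of 2188 and 8215 bp and of 2134 and 8111 bp. The median distance between peak centres was 6207.5 and 6113.5 bp. Gap length had an SD of 7438 bp around a mean of 6467 bp in control 1, a ratio of 1.15, and of 7351 bp around 6361 bp in control 2, a ratio of 1.16. By chromosome that ratio ran from 0.981 and 0.951 on chromosome 18 to 1.40 and 1.37 on chromosome 1. Those chromosomes held the fewest and the most of the long peak-free stretches. Of all gaps, 81.7% in control 1 and 82.2% in control 2 were at most 10000 bp, and 4.21% and 4.07% were over 20000 bp.

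The gap lengths did not fall smoothly. Gaps under 500 bp made up 7.68% of control 1 and 7.94% of control 2, and the share then fell to 4.67% and 4.78% in the class from 2500 to 3000 bp. It rose again to 5.37% and 5.38% from 4000 to 4500 bp, in both libraries at the same length. Beyond that it declined, apart from small rises at 15000 bp and above. An example is the rise in control 2 from 0.571% to 0.637% in the class from 15000 to 15500 bp. Gaps were shorter at the chromosome ends, with a median of 4412 bp against 4780 bp in the middle of control 1 and 4314 bp against 4715 bp in control 2.

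**Figure D3:**
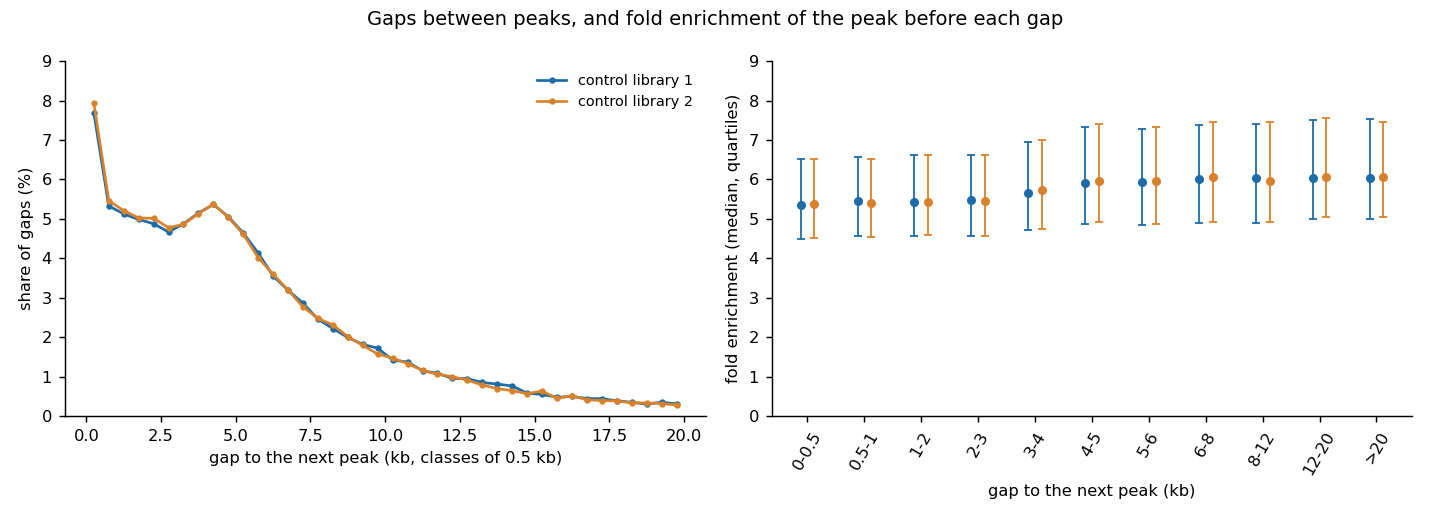
Left, share of gaps (%) in classes of 500 bp of the gap to the next peak (kb), 1 line per control library; right, median fold enrichment with quartiles (bars) of the peak before the gap, by gap length (kb). Shares fell to 4.67% and 4.78% from 2500 to 3000 bp and rose to 5.37% and 5.38% from 4000 to 4500 bp, and the median fold enrichment stepped up from 5.47 and 5.46 before gaps of 2000 to 3000 bp to 5.92 and 5.96 before gaps of 4000 to 5000 bp.

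A step in fold enrichment fell at the same distance. Peaks followed by a gap of at most 500 bp had a median fold enrichment of 5.35 in control 1 and 5.38 in control 2, and those followed by 2000 to 3000 bp had 5.47 and 5.46. From 3000 to 4000 bp the median was 5.66 and 5.72, from 4000 to 5000 bp it was 5.92 and 5.96, and beyond 20000 bp it was 6.04 and 6.07. Most of the rise thus lay between gaps of 2000 to 3000 bp and gaps of 4000 to 5000 bp. The share of peaks on the regular fold scale rose over the same range, from 32.2% at 2000 to 3000 bp to 49.3% at 4000 to 5000 bp in control 1 and from 31.8% to 47.8% in control 2. Among peaks on that scale alone the medians were 5.69 and 6.04 at these distances in control 1, and 5.73 and 5.96 in control 2.

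Regions with a peak in both libraries were ranked by mean fold enrichment, so presence in both was set by this rule. The highest fold enrichment was at chr1:39929079-39930804, with 21.53 in control 1 over 1597 bp and 21.75 in control 2 over 1664 bp. It was followed by chr16:36374092-36375253, with 19.96 and 20.17, and chr16:36321570-36322665, with 18.68 and 17.87. The last pair lie in 1 window of chromosome 16. These 3 peaks were of ordinary width, from 1046 to 1664 bp, and all lay between 65% and 70% of the way along their chromosomes. In control 2 alone the order differed, since a peak on chromosome 11 reached 18.44, above the 17.87 of the third region.

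The widest peaks were ranked among those that overlapped a peak of the other list, and the places on chromosome 1 were less alike. All were picked by extreme width and do not describe wide peaks in general. At chr10:5000158-5008390 the libraries held peaks of 8146 and 8197 bp, with fold enrichments of 4.03 and 4.09. At chr1:49112627-49121067, control 2 held a single peak of 8441 bp with a fold enrichment of 3.46, where control 1 held separate peaks of 2212 and 3928 bp with 3.65 and 3.43. At chr1:32000200-32008435 the widths were 8140 bp in control 1 and 5172 bp in control 2, with 3.89 and 3.62. At the first of these places on chromosome 1 the lists thus divided a broad, weak stretch differently. At the second, each list held 1 peak, which began at 32000200 in control 1 and at 32003264 in control 2.

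Most peaks had a partner in the other library. Of control 1 peaks, 54774 of 64400 shared at least 1 base with a control 2 peak, or 85.1% (95% exact Clopper-Pearson interval 84.8 to 85.3). Of control 2 peaks, 54964 of 65490 shared at least 1 base with a control 1 peak, or 83.9% (83.6 to 84.2). The intervals treat peaks as independent and cover their number only, since read totals are not given. The other list covered 18.3% of all bases in either case, which is not the share of overlaps that chance would give. If both peaks had to overlap by at least 50% of their length, the shares were 80.3% and 79.0%. Merging both lists gave 73841 regions, of which 53689 (72.7%) held peaks of both libraries.

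Peaks without a partner were weak and narrow. The 9626 in control 1 had a median fold enrichment of 4.78 against 6.01 for those with a partner, and a median width of 964 bp against 1308 bp. The 10526 in control 2 had 4.81 against 6.03, and 948 bp against 1292 bp. From the lowest to the highest 10% by fold enrichment, the share with a partner rose from 69.1% to 99.7% in control 1 and from 66.9% to 99.6% in control 2. All 644 of the strongest 1% in control 1 and all 656 in control 2 had a partner. By width it rose from 62.6% to 96.8% and from 61.2% to 96.2%. A wider peak has more bases with which to meet another, and the part of this in the rise with width was not tested. Of the peaks without a partner, 28.8% in each library had a peak of the other list within 1 kb. The median distance to the nearest was 1995 bp in control 1 and 1994 bp in control 2. Values for randomly placed peaks were not computed, so these distances are not read as near misses.

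**Figure D4:**
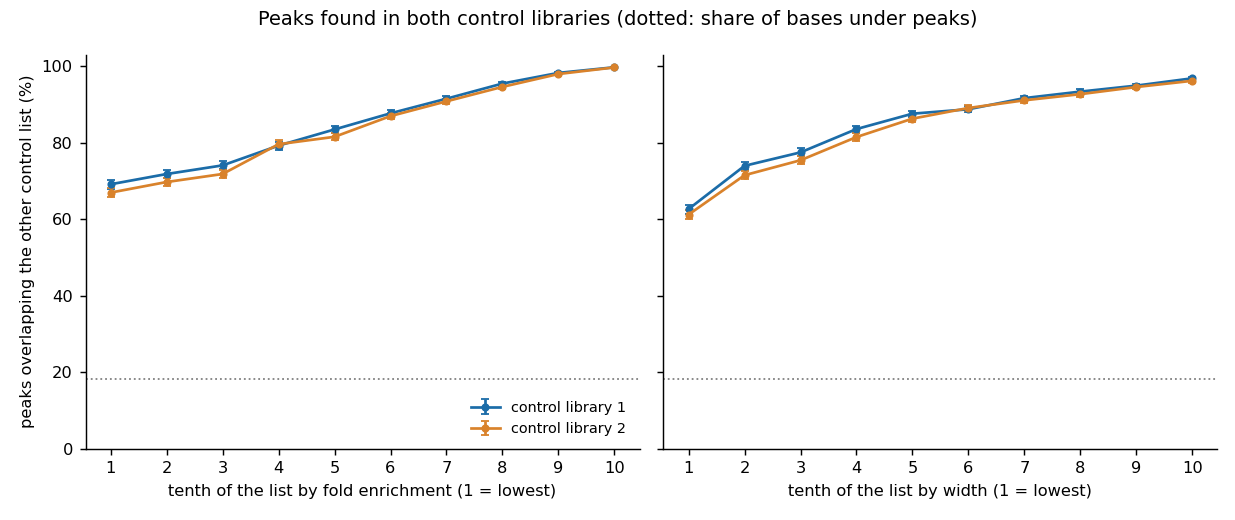
Share of peaks that share at least 1 base with a peak of the other control library (%, vertical axis) in 10 groups of about equal size (peaks of equal value kept together), ranked by fold enrichment (left) and by width (right), with 1 line per library, 95% exact binomial intervals as bars and a dotted line at the 18.3% of bases under peaks, which is not the share of overlaps that chance would give. The share rose with fold enrichment from 69.1% and 66.9% to 99.7% and 99.6%, and with width from 62.6% and 61.2% to 96.8% and 96.2%.

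Agreement was similar from chromosome to chromosome. The Jaccard index, the bases under peaks of both libraries over the bases under peaks of either, ran only from 65.5% on chromosome 17 to 66.8% on chromosome 15, with an SD of 0.356 over 10 chromosomes. Bases under peaks of both made up 14.6% of the extent, and bases under a peak of either made up 22.04%. Along the chromosomes, in bins of 5%, the share of peaks with a partner ran from 82.6% to 87.0% in control 1 and from 81.7% to 85.9% in control 2. At the chromosome ends, 86.6% of control 1 peaks and 85.4% of control 2 peaks had a partner, and in the middle 84.6% and 83.5%. The ends, with their wider and weaker peaks, thus had no lower a share of peaks with a partner than the middle.

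Edges and strengths of matched peaks were close but not the same. In 51550 pairs that matched one to one, the starts differed by a median of 69 bp and the ends by 70 bp, and 90% of pairs differed by at most 336 and 338 bp. The start was identical in 553 pairs, and both edges were identical in 4 of these, so the lists are not copies of each other. Over these pairs, Pearson's r was 0.80 for fold enrichment and 0.87 for width, with a Spearman's rho of 0.77 and 0.82, as a description of peaks that share the genome's sequence and mappability. The log2 ratio of control 2 to control 1 had a median of 0.01 and an SD of 0.27, and 69.0% of pairs had values within 1.2 times of each other. The scale of either list is the authors', so a shift of a whole list could not be told apart from a change of scale.

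Strong peaks were somewhat weaker in the other library. The strongest 10% of control 1 peaks among the pairs had a median of 9.84, and their partners 9.42. The weakest 10% had 3.87, and their partners 4.24. Starting from control 2, the medians were 9.875 and 9.34 at the top and 3.88 and 4.22 at the bottom. Peaks ranked on the error of one list tend towards the middle of the other, so no difference between the libraries is read from these medians.

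**Figure D5:**
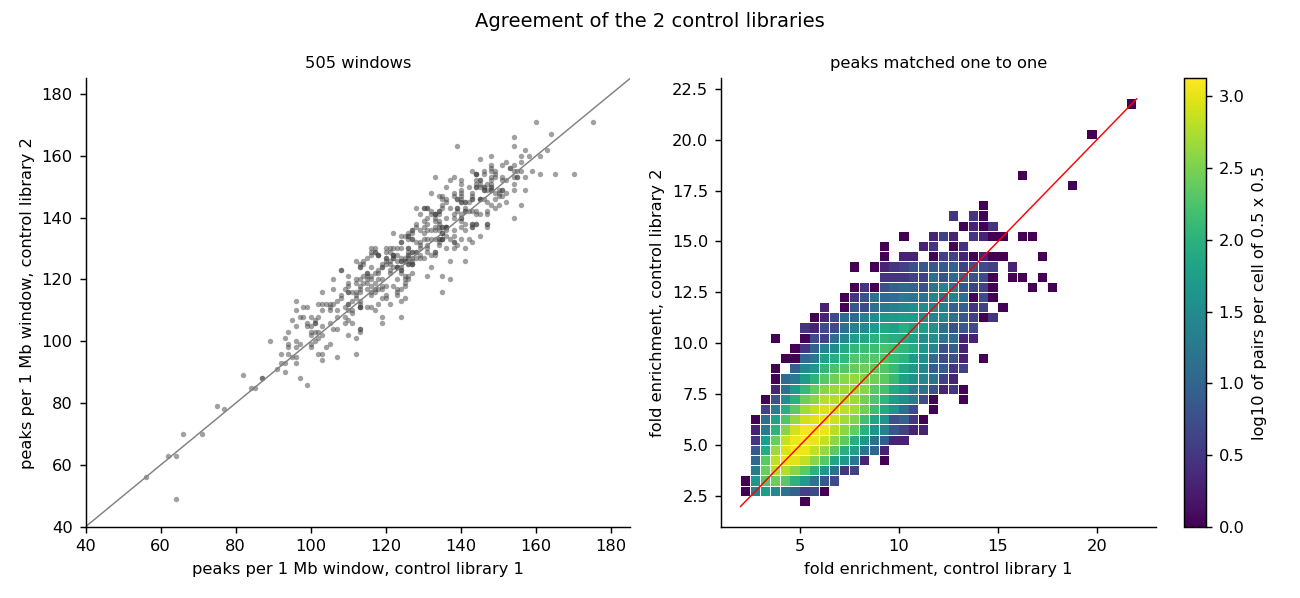
Left, peaks per 1 Mb window in control library 2 against control library 1, with 1 point for each of 505 windows; right, fold enrichment of 51550 peaks matched one to one, coloured by the log10 number of pairs in cells of 0.5 by 0.5; the lines mark equal values. Windows lay along the line with r = 0.94, and 471 of them differed by at most 10%, and the fold enrichment of matched peaks had r = 0.80.

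Over windows of 1 Mb, Pearson's r between the libraries was 0.94 for peak number and 0.98 for covered share, and 0.91 for median width and 0.81 for median fold enrichment. Of 505 windows, 471 (93.3%) had counts within 10% of each other and 504 within 20%. Control 2 had more peaks in 315 windows, control 1 in 166, and 24 were equal, and the difference had a mean of 2.17 peaks and an SD of 6.61. The largest differences were at chr18:47000001-48000000 with 139 in control 1 and 163 in control 2, at chr10:27000001-28000000 with 133 and 153, and at chr14:31000001-32000000 with 135 and 116. At chr18:47000001-48000000 the peaks were wider in the library with fewer of them, 1554 bp against 1330 bp, and the covered share was 22.53% against 24.43%.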

How the data were processed

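The deposited list of each MeDIP library holds the position of every peak with its fold enrichment, a ratio that the authors computed, per the file headers. The submitters' processing notes name BWA, MACS2, TopHat2 and HTSeq 0.6.1 without saying what each was used for. Build of the genome, peak threshold, input control and read totals were not given in the sources used here. Depth is therefore unknown. Positions are those of the lists. Widths count both edges, and a list that counts from 0 would make them 1 base shorter. Both control lists stop part-way through a later chromosome.

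From these lists, peaks were counted per chromosome, in complete windows of 1 Mb, in 20 bins of 5% and in the outer 10% at each chromosome end against the middle 80%. Covered bases are the summed widths of the peaks of a list. In windows, bins and ends, a peak counts with its whole width where its centre lies. A partner shared at least 1 base. The chromosome extent ended at the last peak of either control list. With 1 group of 2 libraries there is no test, and values are given per library or as mean ± SD. Nothing in the labels says that the libraries came from separate clutches, so their spread may be technical. Regions are named by rank, the 3 first of each measure, and the chromosomes and measures were chosen with earlier results of these data known. The strongest regions were ranked by mean fold enrichment and the widest peaks by width, in each case only among those found in both lists. No column was left unmapped. The steps were tested on simulated data. Alternatives were a stricter list, an equal number of peaks, merging within 500 bp, a reciprocal overlap of 50%, other window and end sizes, and each library alone. Work was done in Python 3.11.15 with pandas 2.3.3, numpy 2.4.6 and SciPy 1.17.1, and figures were drawn with matplotlib 3.10.9.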

Additional observations from a re-analysis of the deposited data

How the results depend on the processing

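No paired analysis was possible because all libraries belong to 1 group and no result comes from a test. With only the strongest 50% of each list by fold enrichment, the density of the chromosome ends over the middle was reversed, at 0.859 instead of 1.09. That list also gave 63.6 peaks per Mb, a covered share of 8.89%, a median width of 1256 bp, a median gap of 9764.75 bp, a median fold enrichment of 7.08, partners for 76.8% of peaks, a Jaccard index of 53.4% and a window r of 0.89. The cut drops partners that fall below it in their own list, so these values do not show that stronger peaks agree less. Matched to the full other list, the groups of 10% in the upper 50% had partners for 87.7% to 99.7% in control 1 and 86.9% to 99.6% in control 2. An equal number of strongest peaks gave a covered share of 18.1%, a fold enrichment of 5.79, a Jaccard index of 65.5% and an end ratio of 1.086 against 1.093. Merging peaks within 500 bp gave 117 peaks per Mb, 18.6%, 1307.5 bp, a gap of 5043.5 bp and partners for 85.5%. A reciprocal overlap of 50% gave partners for 79.6%, and windows of 500 kb an r of 0.92. Outer zones of 5% and 20% gave end ratios of 1.08 and 1.12. The regular fold scale and chromosome 1 were examined as alternatives chosen after seeing the data. The end ratio of median fold enrichment was 0.943 on the scale and 0.915 off it, and 0.920 without chromosome 1. Each library alone gave 126 to 128 peaks per Mb, 18.3% covered, widths of 1226 to 1247 bp, gaps of 4614.5 to 4689 bp, fold enrichments of 5.75 to 5.76 and end ratios of 1.09. In all, 25 values stayed within their limit, 22 moved further and 1 reversed. The limit was 1.5 times for peak density and the SD between libraries for most other measures. For the Jaccard index and window r it was the SD between chromosomes. Each library alone had to stay within the SD between libraries, since with 2 libraries neither can lie further from their mean. Taking the strongest 50% likewise sets the number of peaks and raises the median fold enrichment by construction. These counts therefore do not measure how stable the results are. Except where an alternative changed the list itself, the cause was not tested. With unknown read totals, whether a weak peak seen in only one library reflects depth cannot be told.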

Other observations

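Of all windows of 1 Mb, chr16:36000001-37000000, chosen after its values were seen, held the most peaks of the strongest 1%, with 7 in control 1 and 8 in control 2, among 89 and 100 peaks in all. Next by the sum of both libraries, and equal in it, were chr12:30000001-31000000 and chr14:22000001-23000000 with 5 and 4 each, chr17:9000001-10000000 with 2 and 7, chr17:16000001-17000000 with 3 and 6, and chr18:19000001-20000000 with 4 and 5.

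The widest and the strongest peaks without a partner were also picked after their values were seen. In control 1 the widest was chr13:51163398-51171199, with 7802 bp and a fold enrichment of 4.92, and the strongest was chr10:41752245-41753695, with 10.57. In control 2 the widest was chr1:24022066-24029496, with 7431 bp and 3.13, and the strongest was chr17:41669964-41671442, with 11.52.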
